A study of Mus musculus with 8 samples.

Results

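The regions described here are stretches of the mouse genome that carried a 5-hydroxymethylcytosine (5hmC) peak in every one of 8 hippocampal DNA samples. Peaks of the 8 deposited lists were pooled and merged wherever they overlapped by at least 1 bp. Merged regions were kept on chromosomes 1 to 19 when each of the 8 lists had a peak in them and the merged width was below 5000 bp. This gave 1830 shared regions of 156744 merged regions (1.17%). The members were thus chosen by measured values, the presence of a peak in every list and the merged width, and both are given as description only.

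5hmC is made by TET enzymes, which oxidise 5-methylcytosine. It is an intermediate on the way to demethylated cytosine, and it is also a lasting mark in its own right. Neurons carry more of it than most other cells, and in brain it is known to accumulate over gene bodies and enhancers with age and maturation. The hippocampus, on which new memories depend, is one of the tissues in which it has been studied most.

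All samples were hippocampal genomic DNA of C57BL/6 mice, in 4 groups of 2. Aged enriched mice were 18 months old and had environmental enrichment (a roomy chamber with objects to explore and a wheel) for 5 h a day during 4 weeks, and aged control mice were 18 months old and lived in standard cages. Young enriched mice were 6 weeks old and had the same enrichment, and young control mice were 6 weeks old in standard cages. Nothing in the labels tells if both samples of a group are from different mice. The p-values below therefore reflect the spread among these 8 samples, part or all of which may be technical. 5hmC-bearing fragments were tagged with a glucose carrying biotin, captured and sequenced. The assay therefore gives local enrichment in whole tissue and not a level per cytosine. The lists held 25548 to 78980 peaks, and the number of reads behind them is unknown. No gene names or sequences are printed, because a genome and an annotation of the build of the files (mm9) were not used here. For the same reason the tissue label could not be set against marker genes.

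The list that most often kept a region out of the shared set was an aged enriched one. A further 4406 regions below the width limit had a peak in 7 lists. The missing list was aged enriched replicate 2 in 1850 of these and aged enriched replicate 1 in 1538, together 76.9%. Aged control replicate 2 was missing in 489 and aged control replicate 1 in 132. Young enriched replicates 1 and 2 were missing in 84 and 79 regions. Young control replicate 1 was missing in 213, and young control replicate 2, which has the longest list, in 21. The shared set is thus bounded by both aged enriched lists, which are the shortest, with 25548 and 30832 peaks. Among the 6718 regions with a peak in 6 lists, 2356 (35.1%) lacked exactly both aged enriched lists. With the rule applied to 7 lists, the set grew to 3680 regions without aged enriched replicate 2 and to 3362 without aged enriched replicate 1.

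**Figure D1:**
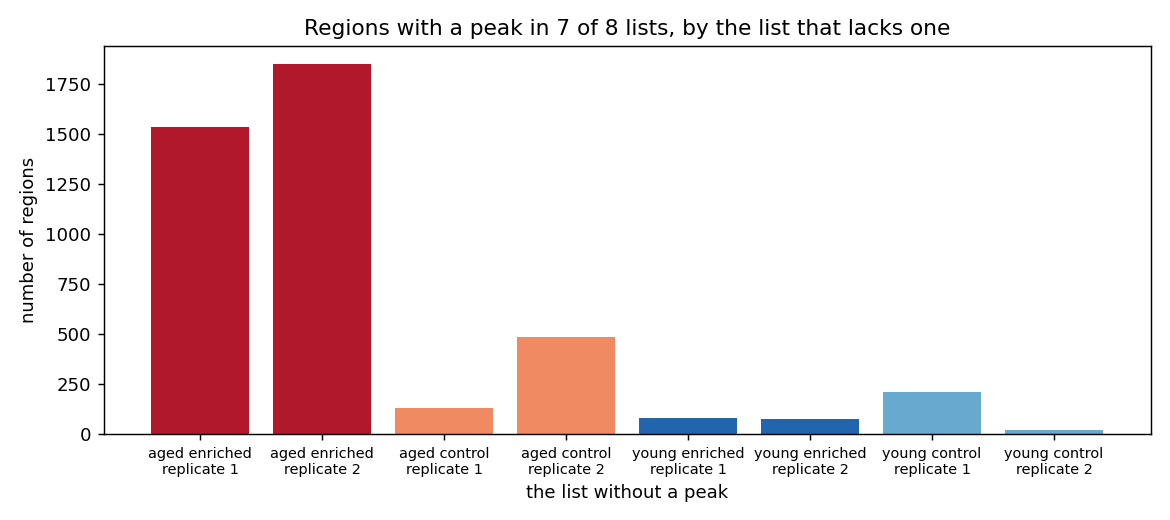
Number of autosomal regions narrower than 5000 bp with a peak in 7 of 8 lists (vertical axis), by the list without a peak (horizontal axis). The bars of aged enriched replicates 1 and 2 reach 1538 and 1850, and the highest of the other bars, aged control replicate 2, reaches 489.

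The shared regions were wide compared with single peaks. Their merged width ran from 802 to 4993 bp with a median of 2536.5 bp, against a median of 887 bp over the other 154830 merged regions on chromosomes 1 to 19. Width grew with the number of lists, from a median of 695 bp in regions of 1 list to 1245 bp in regions of 4 lists and 2067 bp in regions of 7 lists. Pooling more lists can widen a merged region, and its part in this order was not tested. At the width limit, the members just inside were chr11:113027739-113032731 (4993 bp), chr14:69962676-69967665 and chr5:114303134-114308123 (4990 bp each). The regions just outside were chr10:8532443-8537442 (5000 bp), chr16:76365060-76370082 and chr4:142016154-142021176 (5023 bp each). Their smallest coverage in a list was 8.49%, 34.8% and 8.42% of the width inside the limit and 8.46%, 17.1% and 8.52% outside it. In each of these regions the lowest value came from aged enriched replicate 2. Altogether 228 autosomal regions with a peak in all 8 lists were at or above the limit.

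Within the lists, peaks of the shared regions were wider and had higher scores than other peaks. The score was given to each peak by the authors, is higher for a stronger peak, and is read here only within 1 list. In aged enriched replicate 1 the median score was 75.4 for peaks in shared regions and 60.3 for the other peaks, and in replicate 2 it was 128 and 116. In aged control replicates the medians were 134 against 71.1 and 96.2 against 66.0. Young enriched replicates had 128 against 70.5 and 135 against 71.9, and young control replicates 117 against 69.8 and 190 against 77.6. The gap was smallest in aged enriched replicate 2. Members had to be present in the shortest list, so high scores in the longer lists are partly set by the rule. Median peak width was 793 bp in shared regions and 642 bp elsewhere in aged enriched replicate 1, and 450 bp and 429 bp in aged enriched replicate 2. In young control replicate 2, at the other end, it was 1564.5 bp and 944 bp.

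Presence in every list did not mean a strong peak in every list. The median member's best peak stood in the top 21.5% and 32.9% of the aged enriched lists, in the top 7.81% and 13.9% of the aged control lists, in the top 7.68% and 7.56% of the young enriched lists and in the top 10.7% and 4.59% of the young control lists. Only 70 members (3.83%) were in the top 10% of all 8 lists, and 631 (34.5%) were above the median of all 8. In aged enriched replicate 2, 659 members (36.0%) lay in the weaker part of the list, below its median score. Of the 1000 peaks with the highest scores in each list, 310 and 214 lay in shared regions in aged enriched, 350 and 338 in aged control, 375 and 355 in young enriched and 362 and 382 in young control samples. Most of the strongest peaks of any list were therefore outside these 1830 regions. Counting the 228 wider shared regions too raised these numbers to between 244 and 542.

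The 8 members that were strongest in every list held a rank within the top 1.29% throughout. Foremost was chr5:143548220-143550886, which was within the top 0.224% of each list. Its scores were 401 and 360 in aged enriched, 805 and 486 in aged control, 396 and 507 in young enriched and 775 and 666 in young control samples. Peaks covered 80.8% and 58.5% of its 2667 bp in aged enriched, 94.9% and 84.6% in aged control, 80.9% and 95.5% in young enriched and 97.5% and 99.6% in young control samples. Aged enriched replicate 2 was lowest and the other 7 lists lay between 80.8% and 99.6%. Next was chr10:80605855-80608714, with scores of 235 and 824 in aged enriched, 554 and 306 in aged control, 631 and 574 in young enriched and 421 and 781 in young control samples. It was within the top 0.374% of each list. It is 1 of 3 leading members within about a megabase of chromosome 10, with chr10:79843399-79845766 and chr10:79632451-79635496. At chr10:79843399-79845766 aged enriched replicate 1 covered 95.1% of the width, as much as the longer lists (81.1% to 95.6%), while replicate 2 covered 44.4%. The remaining leading members were chr15:88559232-88562569, chr7:4980175-4984005, chr5:125617263-125620422 and chr7:35986604-35990823. In all 8, aged enriched replicate 2 had the smallest footprint, between 27.5% and 58.5% of the width.

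The weakest members each had a peak at the bottom of at least 1 list. At chr17:47395945-47397052 aged control replicate 1 had a score of 50.0, which only its weakest peaks had, while the peak of aged enriched replicate 2 was in the top 13.8% of its own list. At chr10:41958547-41961649 the weak peak, with a score of 50.0, was that of aged enriched replicate 1, and the peak of young control replicate 2 was in the top 3.77% of its list. At chr19:5602746-5606794 it was that of young enriched replicate 2 (score 50.0) and at chr7:89466219-89467602 that of aged control replicate 2 (score 50.0). These lowest peaks thus came from 4 different lists. Further lists were weak at some of these members. At the chromosome 19 member the best peaks of young control replicate 1 and aged enriched replicate 2 were only in the top 91.5% and 83.4%. At the chromosome 17 member those of aged control replicate 2 and young enriched replicate 2 were only in the top 69.55% and 73.7%.

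How much of a region lay under a peak differed between samples. The merged width is set by the longest footprints, so a low share in lists of narrow peaks is partly built in. The median member was covered over 38.4% and 22.0% of its width in aged enriched, 75.5% and 54.1% in aged control, 71.4% and 75.7% in young enriched and 70.1% and 86.7% in young control samples. Both aged enriched samples lay below all the others. Mean coverage was 30.2% ± 11.6 in aged enriched, 64.8% ± 15.1 in aged control, 73.6% ± 3.07 in young enriched and 78.4% ± 11.7 in young control samples (SD of the per-sample medians, n = 2 each). A comparison of 2 samples with 2 cannot go below an exact permutation p of 0.333, so no test is given within an age. In bulk tissue a smaller share of 5hmC-rich cells and less 5hmC per cell cannot be told apart. The lists of the aged enriched samples were also the shortest of the 8. The narrowest peak of aged enriched replicate 2 was 181 bp, against 326 to 354 bp in the other lists. The part of list length and of called peak width in the lower coverage of the aged enriched samples was not tested. Between all aged and all young samples, the difference in equally long lists was -28.8 percentage points over the 1089 regions shared there. With all peaks it was -28.5 over 1830 regions. This difference takes both aged groups together, so it gives no value for the aged enriched samples alone.

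**Figure D2:**
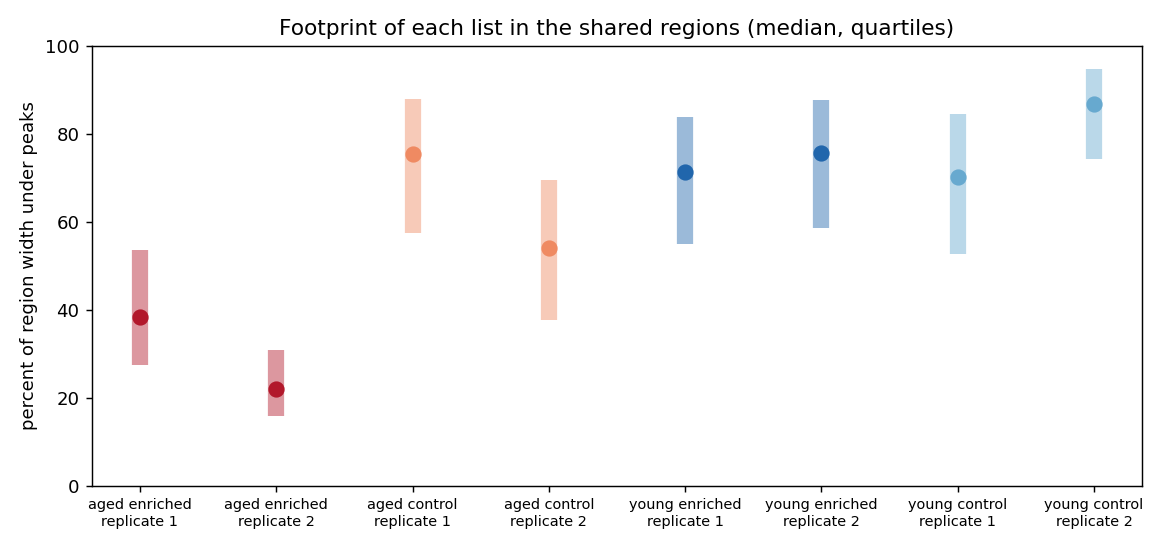
Percent of the width of a shared region under peaks of each list (vertical axis), for the 8 samples (horizontal axis). Points are medians over 1830 regions and bars run over the quartiles. The aged enriched medians, 38.4% and 22.0%, lie below the other medians, which run from 54.1% to 86.7%.

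The median coverage over members was lower on average in aged than in young samples, in a test that could not pass after adjustment. The per-sample medians averaged 47.5% ± 22.8 in the aged and 76.0% ± 7.53 in the young samples (n = 4 each, SD), with a two-sided exact permutation p of 0.0857 and 0.257 after Benjamini-Hochberg adjustment over 6 tests. On the log2 scale, the median covered length was 9.92 ± 0.77 in the aged and 10.78 ± 0.17 in the young samples (n = 4 each, SD), with the same exact permutation p of 0.0857. Aged control replicate 1, at 75.5%, lay among the young samples. When a sample was left out, the rule was applied anew to the other 7 lists. Without aged enriched replicate 2 the age difference was -18.9 percentage points over 3680 regions (exact permutation p = 0.114) and -0.48 on the log2 scale of covered length, against -0.85 with all samples. Without aged control replicate 1 it was -39.1 percentage points over 1950 regions (exact permutation p = 0.0286, adjusted 0.0857). Enriched samples averaged 51.9% ± 26.0 and control samples 71.6% ± 13.6 (SD, n = 4 each), with an exact permutation p of 0.286. The housing difference of -19.7 percentage points was -9.11 without aged enriched replicate 2, and the log2 difference in covered length was -0.22, against -0.62 with all samples. The smallest p that 4 samples against 4 allow is 0.0286. Age and housing cannot both reach it for the same measure. No result could therefore pass after adjustment over the 6 tests, and that none did is no sign of equal groups.

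The mean number of peaks per region lay between 1.17 and 1.30 in every sample and was lowest in both aged enriched samples. The rule asks for at least 1 peak of each list in a member. Closeness between samples is thus partly built in, and the tests below are no sign of equal groups. A member held on average 1.17 and 1.20 peaks in aged enriched, 1.29 and 1.27 in aged control, 1.30 and 1.26 in young enriched and 1.23 and 1.25 in young control samples. Aged samples averaged 1.23 ± 0.058 and young samples 1.26 ± 0.031 peaks (SD, n = 4 each, exact permutation p = 0.40). Enriched samples averaged 1.23 ± 0.061 and control samples 1.26 ± 0.027 (SD, n = 4 each, exact permutation p = 0.457). Depending on the list, 72.8% to 84.6% of members held a single peak, and 725 members (39.6%) had exactly 1 peak in each of the 8 lists. No list had more than 4 peaks in a member.

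Covered length differed least between narrow and wide regions in aged enriched replicate 2. The members were divided by merged width into 4 equal classes. In the narrowest class (802 to 1878 bp) the median covered length was 775 and 459 bp in aged enriched, 1121.5 and 912 bp in aged control, 1098 and 1096.5 bp in young enriched and 1096 and 1243.5 bp in young control samples. In the widest class (3364 to 4993 bp) it was 1142.5 and 549.5 bp in aged enriched, 2878 and 1792 bp in aged control, 2640.5 and 2877 bp in young enriched and 2601 and 3316.5 bp in young control samples. Aged enriched replicate 2 thus differed by less than 100 bp between the extremes, and in every other sample the widest class had clearly longer coverage. Aged enriched replicate 1 had the next smallest rise, from 775 to 1142.5 bp. The merged width is set by the longest footprints, which were mostly those of the young lists, so the rise in those lists is partly built in. Young control replicate 2 had the largest coverage in 727 members (39.7%) and aged control replicate 1 in 384 (21.0%). Aged enriched replicate 2 had the smallest in 1542 (84.3%), and in no member was it the largest. Its peaks are narrow in the whole list, with a median of 430 bp against 650 to 952 bp in the others.

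**Figure D3:**
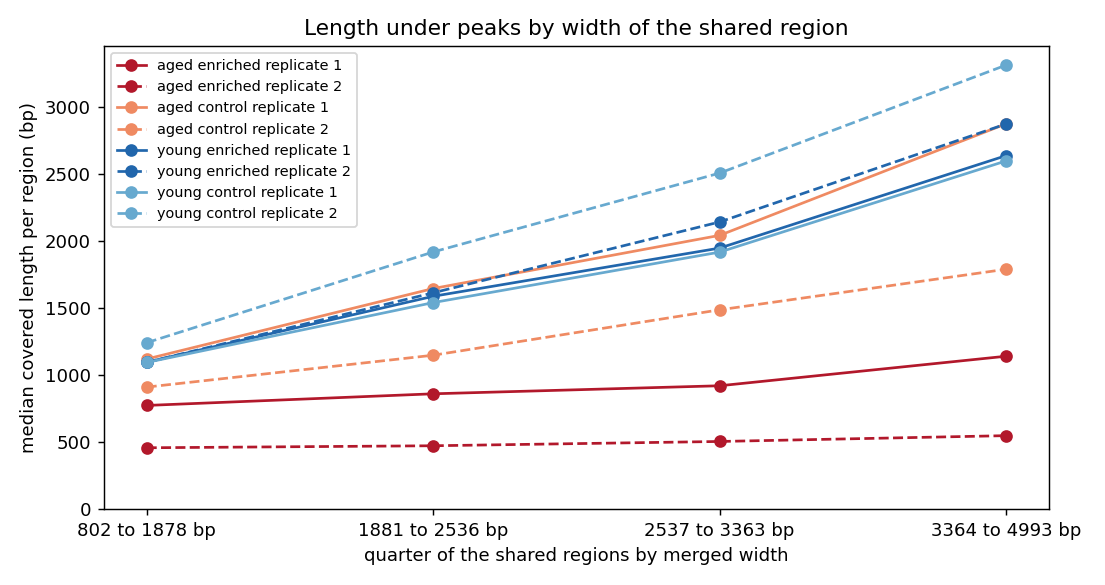
Median length under peaks per shared region in bp (vertical axis) for 4 equal classes of merged width (horizontal axis), 1 line per sample. Aged enriched replicate 2 stays between 459 and 549.5 bp, while young control replicate 2 runs from 1243.5 to 3316.5 bp.

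The share of members under a peak was also read by distance from the midpoint. The midpoint is that of the same pooled peaks, and members narrower than 2000 bp have ended at 1000 bp from it, so a maximum near the middle is largely fixed by the rule, and the values serve to set the lists beside each other. At the midpoint of the merged region, 56.3% and 36.3% of members were under a peak in aged enriched, 84.4% and 70.5% in aged control, 83.7% and 86.1% in young enriched and 83.6% and 93.3% in young control samples. At 1000 bp before the midpoint, by coordinate, the values were 20.8% and 11.3% in aged enriched, 45.5% and 30.8% in aged control, 42.3% and 46.9% in young enriched and 40.2% and 55.7% in young control samples. The strongest peak of a list lay a median of 404 and 418 bp from the midpoint in aged enriched samples, 239 and 336 bp in aged control, 280 and 233 bp in young enriched and 258 and 117 bp in young control samples. These distances were longest in the aged enriched lists.

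**Figure D4:**
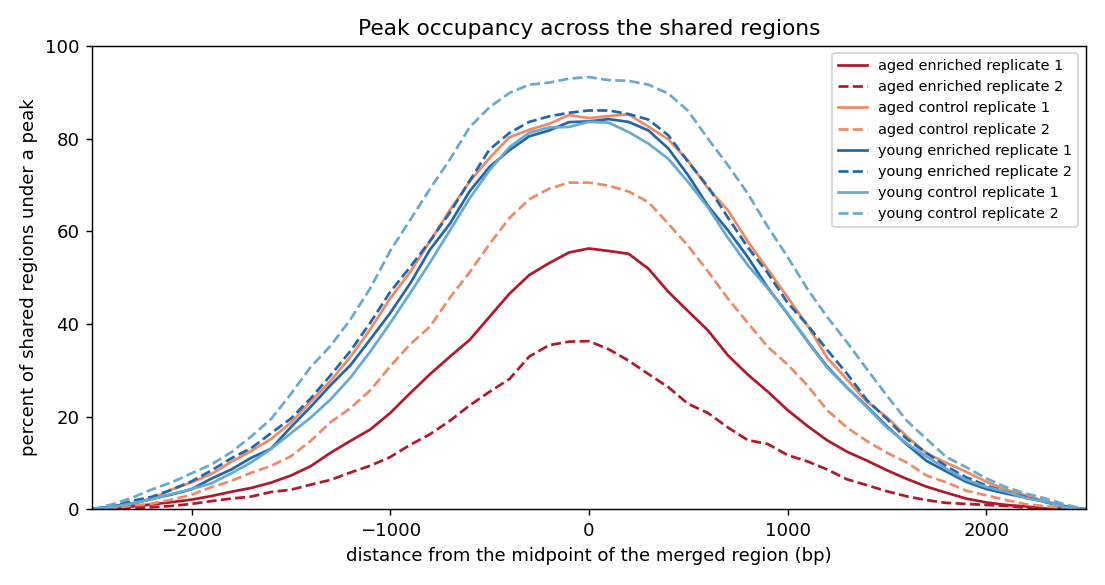
Percent of the 1830 shared regions under a peak of each list (vertical axis) by distance in bp from the midpoint of the merged region (horizontal axis), 1 line per sample. At the midpoint the aged enriched lines reach 56.3% and 36.3%, below the lines of the other samples (70.5% to 93.3%).

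A region shared by all lists did not always contain a base shared by all lists. In 1156 members (63.2%) at least 1 base lay under a peak of each of the 8 lists, and in 674 (36.8%) no base did. The common stretch had a median length of 424 bp (quartiles 321 and 512 bp), a median of 18.4% of the merged width, and reached 1645 bp at most. It was a single unbroken run in 1076 members and was split in 80. Members with a common base were narrower, with a median width of 2243 bp against 3082 bp in those without.

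The aged enriched lists set most of this limit too. Among the same 1830 members, the 4 aged lists had a base in common in 1230 (67.2%), with a median common length of 428 bp, whereas the 4 young lists had one in 1770 (96.7%), with a median of 1077 bp. Within groups the numbers were 1438 for the aged enriched pair, 1760 for the aged control pair, 1814 for the young enriched pair and 1825 for the young control pair. Leaving both aged enriched lists out raised the members with a common base to 1604 (87.7%) and the median common length to 836 bp. Leaving out aged enriched replicate 2 alone raised the count to 1421, and leaving out replicate 1 alone to 1367. Leaving out any other single list gave 1159 to 1246. In each pair of lists, peaks overlapped in 78.6% to 99.8% of members, the lowest being the aged enriched pair.

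Across members, score order was shared moderately between young lists and weakly with aged enriched replicate 2. Spearman's rho between the best scores of 2 lists, given as a description over 1830 regions, was 0.52 to 0.60 in the 6 pairs of young lists, 0.21 to 0.41 in the 3 pairs among the aged lists other than aged enriched replicate 2, 0.24 to 0.47 in the 12 pairs of a young list with one of those aged lists, and 0.062 to 0.18 in the 7 pairs with aged enriched replicate 2. For covered length it was 0.63 to 0.70, 0.31 to 0.50, 0.29 to 0.64 and 0.14 to 0.23 in the same sets of pairs. The points share the merged width, which adds to the agreement in covered length.

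A few narrow members were well covered in every list, and those with the highest value in their least covered list are named here. At chr14:58167092-58168695 peaks covered 79.9% and 77.4% of the 1604 bp in aged enriched, 82.8% and 73.3% in aged control, 77.6% and 77.9% in young enriched and 75.7% and 85.1% in young control samples. There the groups overlapped. Its rank still differed between lists, from the top 0.078% in aged enriched replicate 2 to the top 59.3% in young enriched replicate 1. The other such members were chr10:83103228-83104595 (smallest value 74.0%), chr16:24467417-24468419 (72.3%) and chr10:93870386-93871516 (70.1%). In all, 45 members were at least 50% covered in every list, and the smallest coverage over the 8 lists had a median of 21.1%.

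Other members varied widely between samples. The member with the largest SD of covered length over samples (0.99 on the log2 scale, after the correction described next, against a median of 0.44) was chr4:63095905-63099474. Peaks covered 692 and 1322 bp of it in aged enriched, 1087 and 2337 bp in aged control, 2684 and 697 bp in young enriched and 985 and 3531 bp in young control samples. Replicates differed there in every group, and all groups overlapped. At chr17:56409508-56413904 (SD 0.98) peaks covered 1255 and 759 bp in aged enriched, 3272 and 2539 bp in aged control, 1032 and 748 bp in young enriched and 644 and 3250 bp in young control samples. Both young control samples there lay near opposite ends of the range. Next came chr15:98690494-98694344 (0.94) and chr17:5868661-5871266 (0.92).

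To ask whether single regions changed relative to the rest, covered length (log2 bp) was centred on each sample's median and fitted with limma over all 2058 regions that had a peak in each list. Centring removed each sample's own median, and these medians differed widely. They were 911 and 501 bp in aged enriched, 1877 and 1303 bp in aged control and 1704 to 2216 bp in young samples. Without centring, the median difference over all 2058 regions was -1.04 between aged enriched and aged control samples and -0.79 between aged and young samples, on the log2 scale. After centring it was 0.17 and 0.086, so subtracting the sample medians did not bring it to 0. Uncentred, 335 members had shorter coverage in aged enriched samples, against aged control, at a limma adjusted p under 0.05 (442 or 21.5% of all tested regions), and 389 in aged than in young samples (489 or 23.8% of all tested). No member was longer in either. Of the 2058 tested regions 1830 (88.9%) are members, so shares over all tested regions are mostly those of the members. In both comparisons a smaller share of the members was called than of the 228 wider regions tested with them. Every change given below is relative to the sample medians.

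In aged mice 1 member passed limma between enriched and control housing, and the call was lost in several fits without 1 sample. It was chr11:80414674-80415679, where peaks covered 719 and 454 bp in aged enriched, 475 and 514 bp in aged control, 620 and 620 bp in young enriched and 665 and 1006 bp in young control samples. In base pairs the aged groups overlap, and after centring both aged enriched values (-0.34 and -0.14) were above both aged control values (-1.98 and -1.34). The relative difference was 1.42 ± 0.23 (log2, SE, limma adjusted p = 0.0318), and uncentred it was 0.21 with an adjusted p of 0.49. Of the 2058 regions tested, 2 (0.0972%) passed in this comparison. The call was lost without aged enriched replicate 2 (adjusted p = 0.0760), without aged control replicate 1 (0.309), and without either young control sample (0.0724 and 0.0590). Without aged enriched replicate 1, limma called 25 members longer and 1 shorter, and over all tested regions 25 longer and 35 shorter (60 or 2.92%). Without young enriched replicate 2 it called 2 members longer. A group reduced to 1 sample in these fits is assumed to vary like the other groups. At an unadjusted p under 0.05, 254 members were longer and 58 shorter in aged enriched samples (17.0%, beside 17.7% of all tested regions). Uncentred, these were 0 and 769, and after quantile normalization 133 and 97. A wider table held the 35344 regions with a peak in at least 4 lists, with 100 bp added to every covered length. There 11 members were longer and 32 shorter (2.35%, beside 9.70% of all its regions). The direction and the share of members thus depend on the table used.

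The next members in the same comparison did not pass limma. Those with relatively longer coverage in aged enriched samples were chr2:168778795-168779849 (1.24 ± 0.24 SE) and chr8:72841690-72842756 (1.31 ± 0.27 SE), each with a limma adjusted p of 0.0944. Both are narrow, at 1055 and 1067 bp. At chr2:168778795-168779849 peaks covered 706 and 492 bp in aged enriched and 695 and 478 bp in aged control samples, so the groups overlapped before centring. Those with shorter coverage were wide, namely chr18:80289203-80293268 (-1.44 ± 0.38 SE), chr11:69212901-69216207 (-1.30 ± 0.37 SE) and chr2:32776256-32780902 (-1.51 ± 0.43 SE), with limma adjusted p from 0.137 to 0.160. At chr18:80289203-80293268 peaks covered 577 and 406 bp in aged enriched, 3453 and 2674 bp in aged control, 3821 and 2802 bp in young enriched and 2378 and 3053 bp in young control samples. There the aged enriched samples stood below all the others.

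This order by width ran through the whole set. The median relative difference between aged enriched and aged control samples was 0.54 in the narrowest of the 4 width classes, 0.24 and 0.07 in the middle classes and -0.15 in the widest. Between young enriched and young control samples it stayed between -0.01 and 0.02 in all 4 classes. Over all members the aged difference had a median of 0.23 and was above 0 in 1194 (65.2%), beside 0.17 and 60.5% over all tested regions. The young difference had a median of 0.01 and was above 0 in 947 members (51.7%), beside 51.6% over all tested regions. Both aged enriched samples rose less in covered length between the narrowest and widest classes than the others, replicate 2 least. The SD of centred covered length was 0.65 and 0.59 in aged enriched samples and 0.75 to 0.80 in the others. These values move with the order by width, and their part in it was not tested.

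**Figure D5:**
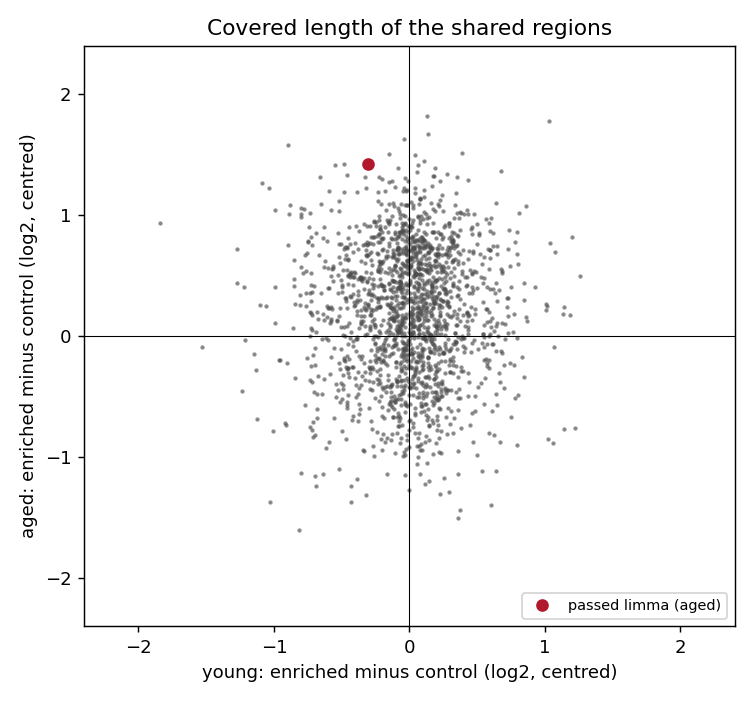
Relative covered length of each of the 1830 shared regions as the log2 difference between enriched and control samples, in aged mice (vertical axis) and in young mice (horizontal axis), 1 point per region. The member that passed limma in aged mice is marked, at 1.42 on the vertical axis. The cloud is centred near 0.23 in aged and 0.01 in young mice.

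In young mice no shared region passed limma between enriched and control housing (0 of 2058 tested regions, 0%), with 18 members higher and 30 lower at an unadjusted p under 0.05 (2.62%, beside 2.48% of all tested regions). Uncentred, 6 were higher and 15 lower, and after quantile normalization 14 were higher and 12 lower. The leading member was chr1:74003474-74006972, with 719 and 870 bp in young enriched and 3344 and 2715 bp in young control samples (-1.84 ± 0.38 SE, limma adjusted p = 0.559). In aged mice the same member had 1388 and 586 bp in aged enriched and 1356 and 884 bp in aged control samples, and centred means of 0.42 in aged enriched and -0.51 in aged control samples. The difference between the ages there was 2.77 ± 0.54 SE (interaction, limma adjusted p = 0.148). Other members with shorter coverage were chr9:44629934-44632597 (-1.27) and chr18:75569098-75572397 (-1.53), and those with longer coverage were chr8:127858287-127860517 (1.26), chr4:107161283-107163247 (1.20) and chr9:120259303-120262168 (1.18). At chr8:127858287-127860517 peaks covered 1709 and 1498 bp in young enriched and 679 and 750 bp in young control samples. Both young enriched samples there were longer than both young control samples. The limma 95% interval of a young or aged housing difference had a median half-width of 0.85 on the log2 scale. For a typical member, smaller changes could not be told from none even before adjustment. The interval is not adjusted over the 2058 regions, so larger changes could also go uncalled, as the leading member did at -1.84.

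Between ages, 0 of 2058 tested regions (0%) passed limma, with 213 members higher and 68 lower in aged samples at an unadjusted p under 0.05 (15.4%, beside 15.6% of all tested regions). Uncentred, 0 were higher and 870 lower, and after quantile normalization 132 were higher and 81 lower. The leading positive difference was at chr12:114354963-114357144, with 1760 and 859 bp in aged enriched, 2055 and 1393 bp in aged control, 837 and 982 bp in young enriched and 1042 and 1383 bp in young control samples (1.34 ± 0.25 SE, limma adjusted p = 0.132). It was also longer in base pairs in both aged control samples than in any young sample. At chr7:52631770-52633847 the aged control samples, with 1935 and 1630 bp, likewise exceeded all 4 young samples (853 to 923 bp). The aged enriched samples had 1040 and 403 bp, on either side of the young values, and the relative difference was 1.16 ± 0.23 SE (limma adjusted p = 0.141). The third, chr8:96908705-96909790, had a relative difference of 0.74 that turned to -0.13 without centring. The leading negative differences were at chr4:8639048-8643529 (-1.40 ± 0.27 SE), chr4:32512658-32517584 (-1.17) and chr5:73623505-73627688 (-1.18). At chr4:8639048-8643529 the aged samples covered 1152 and 432 bp with enrichment and 1063 and 810 bp without, against 3825 and 4447 bp in young enriched and 3219 and 4233 bp in young control samples. All 4 aged samples lay below all 4 young ones there, by a wide gap, yet the adjusted p was 0.132.

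Over both ages, 0 of 2058 regions (0%) passed limma for housing and 0 (0%) for the interaction of age and housing. At an unadjusted p under 0.05 there were 122 members higher and 32 lower for housing (8.42%, beside 8.99% of all tested regions), and 116 higher and 30 lower for the interaction (7.98%, beside 8.36%). Uncentred, these were 1 higher and 430 lower for housing and 1 higher and 302 lower for the interaction. After quantile normalization they were 63 higher and 51 lower for housing and 60 higher and 48 lower for the interaction. The leading member for housing was chr15:77747891-77750495, with 1312 and 847 bp in aged enriched, 742 and 684 bp in aged control, 1125 and 2051 bp in young enriched and 853 and 735 bp in young control samples (1.404 ± 0.26 SE, limma adjusted p = 0.156). It was longer in all but 1 enriched sample than in every control sample, and passed without young enriched replicate 1 (adjusted p = 0.0243). Next among the positive differences were the chromosome 4 and chromosome 8 members named for young mice, chr4:107161283-107163247 (1.01) and chr8:127858287-127860517 (0.88). Negative differences were led by chr8:122800764-122805600 (-1.21), chr4:134299999-134304450 (-1.20) and chr3:97010515-97014713 (-0.96). For the interaction the leading positive values were chr11:80414674-80415679 (1.73), the chromosome 1 member above and chr19:53300667-53302536 (2.36), and the leading negative values chr12:100442926-100445846 (-1.91), chr5:73934386-73937336 (-1.88) and chr18:80289203-80293268 (-1.81).

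Counted in base pairs with no centring, the members followed all tested regions in how often groups did not overlap. Shares of 2 samples against 2 and of 4 against 4 are not comparable with each other. Both aged enriched samples had shorter coverage than both aged control samples in 1182 members (64.6%), beside 66.2% of all tested regions, and longer coverage in 7 members (0.383%), beside 0.340%. Both young enriched samples were shorter than both young control samples in 420 members (23.0%), beside 23.1%, and longer in 152 (8.31%), beside 7.87%. All 4 aged samples were shorter than all 4 young samples in 315 members (17.2%), beside 17.4%, and none was longer (0% of tested regions). All 4 enriched samples were shorter than all 4 control samples in 63 members (3.44%), beside 3.45%, and again none was longer (0%). Members are 88.9% of the tested regions.

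Shared regions were spread over all autosomes but not evenly. Chromosome 17 had the most for its length, with 126 members or 1.37 per Mb, followed by chromosomes 11 (1.10 per Mb, 134 members), 19 (1.06 per Mb, 65 members) and 8 (1.04 per Mb, 137 members). Chromosome 3 had the fewest per Mb, 0.380 (60 members), and chromosomes 1, 13 and 6 had 0.401, 0.416 and 0.421 per Mb. The autosomal value was 0.743 per Mb, counted up to the last peak of each chromosome. As a share of all merged regions, members made up 1.71% on chromosome 17, 1.49% on chromosome 8 and 1.44% on chromosome 15, against 0.718% on chromosome 13, 0.737% on chromosome 6 and 0.791% on chromosome 1. Chromosomes poor in members were thus poor in them also per merged region.

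Members lay more often towards the distal ends of chromosomes. Mouse autosomes carry the centromere at the end where coordinates begin. When each chromosome was divided into 10 equal parts up to its last peak, the part at the distal end held 464 members (25.4%), beside 18.2% of all merged regions on chromosomes 1 to 19. The part next to the centromere held 72 members (3.93%), beside 4.53% of merged regions. Members were 1.63% of merged regions in the most distal part, 1.29% and 1.24% in the 2 parts before it, and 0.925% to 1.04% in the other 7.

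Many members had another one nearby. The gap between neighbouring members had a median of 183 kb (quartiles 35.9 and 868 kb), and 540 of 1811 neighbouring pairs (29.8%) were at most 50 kb apart. Chains of members with gaps of at most 50 kb numbered 335 and held 875 members, while 955 members (52.2%) stood alone. In 104 windows of 1 Mb there were at least 5 members, 717 in all, and the fullest windows, with 13 members each, were at 80 to 81 Mb of chromosome 10, 137 to 138 Mb of chromosome 4 and 115 to 116 Mb of chromosome 5.

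The longest chain had 9 members in 206 kb, at chr5:125445705-125651698, and included the chromosome 5 member at 125617263 that ranked among the strongest. The neighbouring member chr5:125604007-125606024 had peaks over 75.7% and 33.3% of its width in aged enriched, 97.3% and 69.3% in aged control, 96.3% and 96.9% in young enriched and 95.4% and 97.1% in young control samples. Aged enriched replicate 2 stood lowest in all 9 members of the chain. Its coverage ran from 10.8% at chr5:125547694-125552019 to 49.2% at chr5:125589727-125591264. The first of these and the last pair of the chain, chr5:125632018-125635477 and chr5:125648974-125651698, had no base common to the 8 lists, while the other members had 12 to 985 bp.

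Of 3 chains with 7 members, the one with the shortest span, 110 kb at chr18:83090943-83200904, is described. The others were chr11:112905273-113043220 (138 kb) and chr9:118838182-118981754 (144 kb). In the chromosome 18 chain, the member chr18:83123861-83127239 was covered over 35.9% and 21.3% of its width in aged enriched, 90.4% and 89.6% in aged control, 88.6% and 100% in young enriched and 93.1% and 93.8% in young control samples. Both aged enriched samples lay far below the others, and no base was common to all 8 lists. At chr18:83139932-83142874 the samples were closer, with 63.6% and 35.6% in aged enriched, 69.3% and 51.6% in aged control, 71.8% and 56.8% in young enriched and 63.0% and 78.3% in young control samples. Aged enriched replicate 2 was lowest there, and 546 bp were common to all lists. Of the other members of the chain, chr18:83132696-83137270 had no common base.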

How the data were processed

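Each sample has its own peak list, in which the authors deposited a score for every peak. Tools named in the submitters' processing notes are Bowtie 0.12.9, CASAVA 1.4 and MACS 1.4.2, with mm9 as the build. The score of this MACS version is known to grow with the −log10 p-value of the peak, and so with depth. The sources used here do not give caller settings, the background library or read numbers. Coordinates are printed counted from 1.

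Peaks were merged in Python 3.11.15 (checked against bedtools 2.31.1, with 156744 identical regions). The sum of a list's peak widths in a region is its covered length. Per-sample summaries were compared by exact two-sided permutation tests (70 assignments), adjusted by Benjamini-Hochberg over 6 tests. Covered length (log2, centred on each sample's median) was fitted with limma 3.58.1 (R 4.3.3, trend, 4 groups, all 8 samples, Benjamini-Hochberg, threshold 0.05) and tested on simulated data. Regions named are, by rule, the members strongest or weakest over the lists, with the highest coverage in their least covered list or the most variable footprint, next to the width limit, leading each limma comparison in each direction, and in the 2 chains with most members (of 3 tied chains, the one with the shortest span). The chain limit was 50 kb. The members, lists and tests were chosen with earlier results of these data known. Gene lists were planned, but no gene was assigned, since an mm9 annotation was not used here.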

Additional observations from a re-analysis of the deposited data

How the results depend on the processing

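The number of shared regions was 263 with a score of at least 100, 1089 in equally long lists, 1170 with a width below 3000 bp and 6236 with a peak in at least 7 lists. Without 1 sample it was 1840 to 3680. The score limit is the same for all lists and cuts them unequally. The median score of peaks outside the shared regions was 116 in aged enriched replicate 2 and 60.3 to 77.6 in the other lists. Members with a common base numbered 206 with a score of at least 100, 728 in equally long lists and 1207 to 2833 without 1 sample. Changing the overlap needed for merging left both counts within 1.5 times. Coverage and covered length kept their direction under all alternatives run. Their adjusted p over 6 tests could not fall below 0.05 in any of these, so that none passed is no sign of stability. The number of peaks per region turned for age with a score of at least 100 (0.017) and in equally long lists (0.040), and for housing in these (0.023 and 0.0092) and without aged enriched replicate 1 (range without 1 sample: -0.048 to 0.0019). The cause was not tested. Members called by limma in aged mice were 335 uncentred, 2 in a fit of the aged samples alone, and 0 after quantile normalization, in the table of regions with a peak in at least 4 lists, with array weights and with a score of at least 100, against 1. Without 1 sample they were 0 to 26. Between ages limma called 389 uncentred and 6 with a score of at least 100, and for housing over both ages 0 to 1 without 1 sample. The chr8:96908705-96909790 difference with age turned to -0.13 uncentred.

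Replicate numbers were not treated as pairing. Deviations of same-numbered samples from their group means correlated at -0.070 to 0.032 between groups over regions. With the replicate block limma called 1 member in aged mice and 0 in each other comparison, as without it. Unknown read depth limits every comparison of footprints.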
